A study of Mus musculus with 16 samples.

Results

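A set of 8 loci that encode receptors of the T cell surface were followed through thymocyte maturation by the peaks of open chromatin called around them. The genes were the costimulatory and coinhibitory receptors Cd28, Ctla4, Icos and Pdcd1 and the TNF receptor superfamily members Tnfrsf4, Tnfrsf18, Tnfrsf9 and Cd27. A peak was counted when it lay whole within the annotated gene body (GENCODE M21, mouse genome mm10) or within 30 kb on either side of it. The 8 windows held 152 of the 185978 regions obtained by merging the overlapping peaks of all stages. They held 99 of 150139 peaks in the DN list, 86 of 107110 in the DP list, 120 of 115074 in the SP4 list and 122 of 104411 in the SP8 list.

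The study profiled thymocytes that lack CD4 and CD8 (DN, double negative), carry both (DP, double positive) or carry CD4 or CD8 alone (SP4 and SP8, the single positive stages) by ATAC-seq, in which a transposase inserts sequencing adaptors into accessible DNA. The cells were sorted by flow cytometry from the thymus of C57BL/6J mice aged 9 weeks, with no genetic change or treatment in any group. DN cells were selected as negative for CD4, CD8, CD3 and a panel of lineage markers, DP cells as positive for CD4 and CD8, and SP cells as positive for CD3 and for CD4 or CD8. There were 16 libraries, since the same 4 mice gave cells of all 4 stages, and the authors pooled the 4 mice of a stage before calling peaks. Each stage is therefore a single list with no replicate error, no difference between stages could be tested, and the read depth of each library is not given in the lists. Intervals printed with a share are 95% Wilson intervals and cover counting error only. In a sorted bulk population, fewer cells with an open site and less signal per cell cannot be told apart.

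CD28 is the receptor that delivers the main costimulatory signal alongside the T cell receptor when it binds B7 ligands. CTLA-4 competes for the same ligands and restrains the response, ICOS is an inducible relative of CD28, and PD-1, encoded by Pdcd1, recruits phosphatases that dampen receptor signaling. OX40 (Tnfrsf4), GITR (Tnfrsf18), CD137 (Tnfrsf9) and CD27 belong to the TNF receptor superfamily and signal through TRAF adaptors to NF-kB. In the thymus, costimulation accompanies negative selection and the making of regulatory T cells, and OX40, GITR and CTLA-4 are known for high levels on regulatory T cells.

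The sequences below come from accessible sites at these loci, some of them weak or called at every stage. Each has 200 bases centred on the summit of the highest peak of a region that overlaps no exon. They are written 5′ to 3′ on the forward strand of GRCm38.p6, the assembly that mm10 names. The Ctla4 promoter is the 250 bases before the RefSeq start, from the same build. Distances are in kb from the first coding start site to the nearer edge of the region, negative upstream along the gene. Capitals mark matches, on either strand, to any of the 11 motifs described further on. The Ctla4 -10.0 kb and Pdcd1 -14.0 kb regions were chosen after their values were seen. The other regions are among those that the rule given with the methods yields, but the rule did not fix the choice among them. It does not cover the promoter.
Cd28 -32.2 kb, chr1:60713732-60713931: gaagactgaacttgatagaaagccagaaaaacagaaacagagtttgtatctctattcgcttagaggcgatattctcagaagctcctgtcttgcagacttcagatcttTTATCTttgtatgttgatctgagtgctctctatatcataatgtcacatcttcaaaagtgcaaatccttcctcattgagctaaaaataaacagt
Ctla4 promoter, chr1:60908775-60909024: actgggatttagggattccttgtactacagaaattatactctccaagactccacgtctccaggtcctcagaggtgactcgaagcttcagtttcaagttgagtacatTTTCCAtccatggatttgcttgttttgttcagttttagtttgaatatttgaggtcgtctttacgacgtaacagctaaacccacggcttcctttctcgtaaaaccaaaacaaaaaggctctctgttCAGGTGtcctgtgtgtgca
Ctla4 -10.0 kb, chr1:60898547-60898746: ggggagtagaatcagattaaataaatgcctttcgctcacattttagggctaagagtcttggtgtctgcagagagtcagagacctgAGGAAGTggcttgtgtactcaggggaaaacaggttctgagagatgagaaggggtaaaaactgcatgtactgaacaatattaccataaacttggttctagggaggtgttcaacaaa
Icos +49.7 kb, chr1:61027624-61027823: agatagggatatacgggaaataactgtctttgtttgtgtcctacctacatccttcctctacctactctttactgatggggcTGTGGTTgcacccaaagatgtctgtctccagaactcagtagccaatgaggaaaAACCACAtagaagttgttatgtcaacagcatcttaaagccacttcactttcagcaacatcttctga
Tnfrsf18 +6.8 kb, chr4:156032959-156033158: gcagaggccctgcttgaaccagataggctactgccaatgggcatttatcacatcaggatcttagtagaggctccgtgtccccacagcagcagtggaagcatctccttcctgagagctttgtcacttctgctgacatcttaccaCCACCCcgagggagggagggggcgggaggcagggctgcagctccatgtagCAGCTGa
Tnfrsf9 +9.5 kb, chr4:150924447-150924646: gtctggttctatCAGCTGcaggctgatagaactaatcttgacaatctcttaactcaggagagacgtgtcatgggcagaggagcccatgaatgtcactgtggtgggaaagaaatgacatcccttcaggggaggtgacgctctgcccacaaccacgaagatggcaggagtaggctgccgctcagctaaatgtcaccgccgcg
Cd27 -29.1 kb, chr6:125266089-125266288: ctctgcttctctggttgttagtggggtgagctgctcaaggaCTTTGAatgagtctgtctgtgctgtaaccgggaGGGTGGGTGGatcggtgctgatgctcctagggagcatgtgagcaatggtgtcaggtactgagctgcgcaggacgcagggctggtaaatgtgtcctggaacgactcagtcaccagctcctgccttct
Pdcd1 -14.0 kb, chr1:94066560-94066759: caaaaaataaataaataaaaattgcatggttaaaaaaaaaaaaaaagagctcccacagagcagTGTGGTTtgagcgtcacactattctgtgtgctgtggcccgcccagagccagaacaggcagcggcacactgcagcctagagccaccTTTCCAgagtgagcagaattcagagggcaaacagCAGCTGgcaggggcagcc

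The first comparison asked at which stages the loci carried called peaks. In 7 of the 8 windows both SP lists held more peaks than the DN and the DP list, a pattern found in 4.65% of the 18464 protein-coding gene windows with a peak. More SP4 than DN peaks were counted in 7 of 8 windows, against 14.7% of all windows, and more SP8 than DN peaks also in 7 of 8, against 10.0%. The exception in each case was Tnfrsf9. The median member window held 12 peaks in DN, 9 in DP, 17 in SP4 and 16.5 in SP8 cells, while the median of all gene windows was 12, 8, 9 and 8 at the same stages. Among the 8789 windows with at least 40 peaks over the 4 lists, the lowest total of a member, 5.35% had more peaks at both SP stages than at DN and DP. These are not 8 separate observations, because all 12 regions of the Tnfrsf18 window also lie in the Tnfrsf4 window and because Cd28, Ctla4 and Icos are neighbours.

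**Figure D1:**
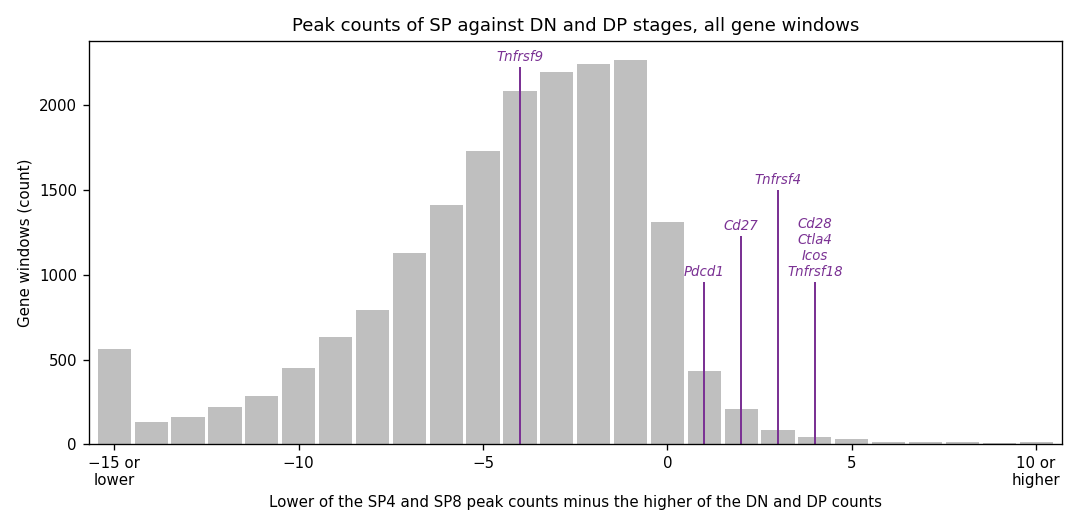
Number of protein-coding gene windows (vertical axis) by the lower of the SP4 and SP8 peak counts minus the higher of the DN and DP peak counts (horizontal axis, peaks; the end bars collect lower and higher values), with the members drawn as lines. Tnfrsf9 lies at -4, inside the bulk of the windows, and the other 7 members lie between 1 and 4.

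Icos had the widest relation between stages, with 10 peaks in DN, 6 in DP, 17 in SP4 and 14 in SP8 cells. Cd28 had 13, 10, 17 and 19 peaks in the same order, and Ctla4 had 20, 17, 24 and 24. In all 3 genes DP was the lowest stage and both SP stages were above DN. Tnfrsf4 had 10, 8, 13 and 14 peaks and its neighbour Tnfrsf18 had 8, 7, 12 and 13. Pdcd1 had 11, 7, 13 and 12 peaks, and Cd27 had 15, 16, 18 and 20, so that at Cd27 the DN and not the DP list was lowest. DP was the lowest or tied for lowest in 6 of 8 windows, and in 47.7% of all windows. Tnfrsf9 had 20 peaks in DN, 22 in DP, 18 in SP4 and 19 in SP8 cells, an order unlike that of the other members. When each list was cut to its 104411 best peaks by q-value, the length of the shortest list, Tnfrsf9 had 7 more peaks at SP4 than at DN instead of 2 fewer, and the share of all gene windows with more peaks at both SP stages became 13.7%, with 7 of the 8 members still showing that pattern.

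**Figure D2:**
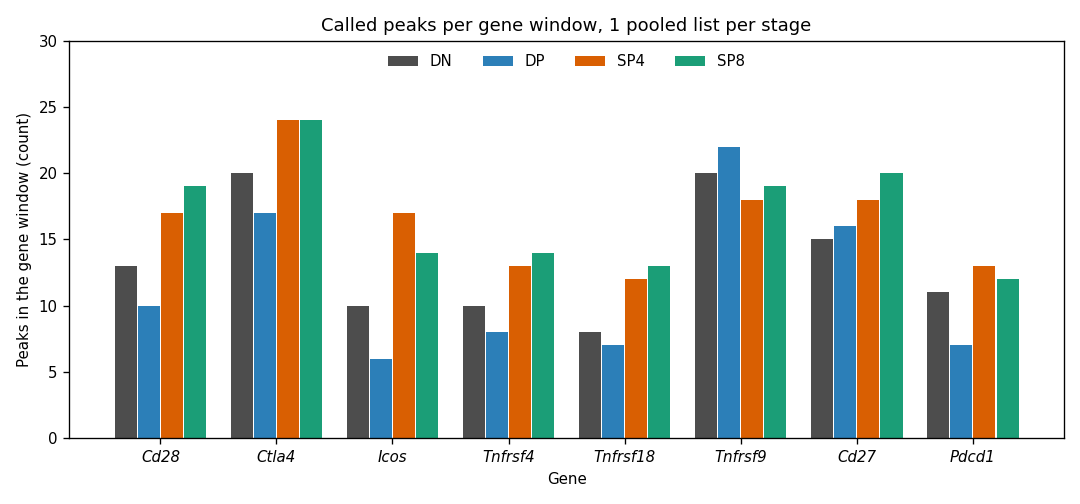
Number of called peaks (vertical axis) in the window of each gene (horizontal axis), 1 bar per pooled stage list and no error bars because no replicates exist. The SP4 and SP8 bars stand above the DN and DP bars at every gene except Tnfrsf9, where they are 18 and 19 against 20 and 22.

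By covered length, 6 of the 8 windows had more open chromatin at both SP stages than at DN and DP, against 10.7% of all windows, but the genes were not the same as by peak counts. The members' peaks covered 33251 bp in total in DN, 28990 bp in DP, 39319 bp in SP4 and 39565 bp in SP8 cells. At Icos the length went from 1829 bp at DP to 4750 bp at SP4, the widest ratio among the members at 2.6, and at Tnfrsf9 the highest and lowest stage differed by a ratio of only 1.16. Tnfrsf9, the exception by counts, was among the 6, with 7024 bp at SP4 and 7495 bp at SP8 against 6446 bp at DN and 6499 bp at DP. Cd27 was not, because its SP4 length of 5697 bp equalled that at DN and was below the 6076 bp at DP. Pdcd1 was the other gene without the pattern. There the DN list, with fewer peaks than either SP list, covered the most, 3183 bp against 2888 bp at SP4 and 2894 bp at SP8.

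The second comparison asked which combinations of stages shared a region. Of the 152 regions, 47 (30.9%, interval 24.1 to 38.7%) were called at SP4 or SP8 and at neither DN nor DP, against 15.4% of all regions and 15.1% of the regions in gene windows. The reverse pattern, called at DN or DP and at neither SP stage, was found in 16 (10.5%, interval 6.58 to 16.4%), against 32.5% of all regions. DN only regions were 7 of 152 (4.61%), where 21.7% of all regions are DN only. Regions called at both SP stages and no other numbered 18 (11.8%, interval 7.62 to 17.9%, background 3.82%). A further 16 were called at SP4 only (background 7.39%) and 13 at SP8 only (background 4.21%). The remaining large class, 61 regions called at all 4 stages (40.1%, interval 32.7 to 48.1%), was close to the 34.1% of all regions. Each region was counted once, but regions of the same or of neighbouring loci are not independent, so these intervals are too narrow as a measure of how such loci vary.

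**Figure D3:**
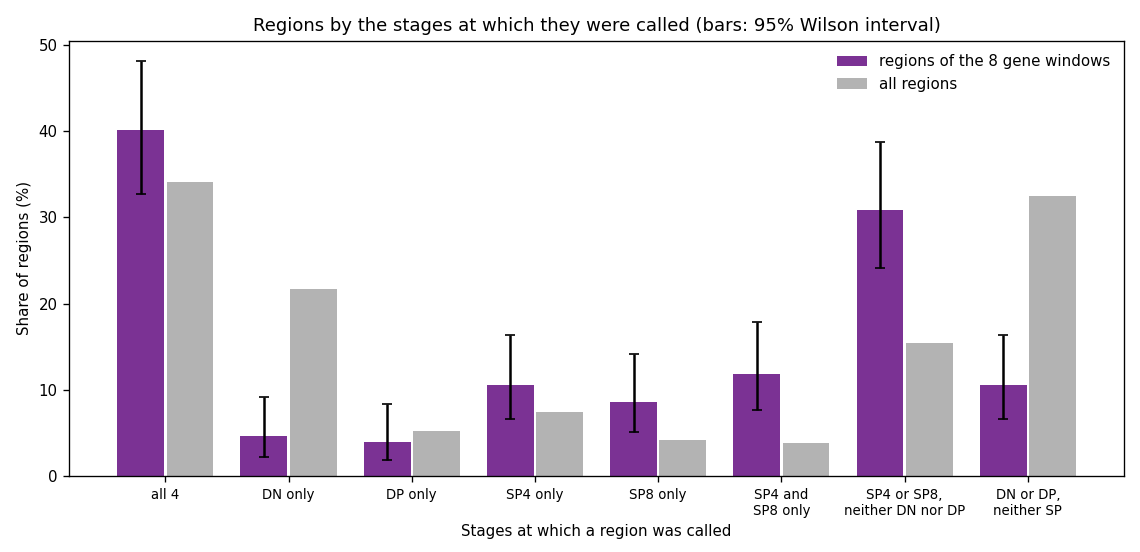
Share of regions in percent (vertical axis) by the set of stages at which they were called (horizontal axis), for the 152 regions of the 8 gene windows with 95% Wilson intervals and for all regions. The members exceed all regions where a region was called at an SP stage and at neither DN nor DP (30.9 against 15.4%), and lie below them for DN only (4.61 against 21.7%).

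The regions called at SP4 or SP8 and at neither DN nor DP, termed gained here for short, were spread unevenly. Ctla4 had 11 among its 33 regions, Cd28 10 among 24, Icos 10 among 19 and Cd27 6 among 22. Tnfrsf4 had 5 among 13, Tnfrsf18 the same 5 among 12, Pdcd1 4 among 16 and Tnfrsf9 1 among 25. Without the windows of Cd28, Ctla4 and Icos the share was 21.1%, 16 of 76 regions, against a background of 15.4%. That share lies below the interval of 24.1 to 38.7% for all 8 windows. No interval was computed for it, so an excess over the background cannot be read from the other genes. The 76 regions include the 25 of Tnfrsf9, the window with the fewest gained regions. At Tnfrsf9 7 regions went the other way and were called at DN or DP alone, and Icos, Tnfrsf4 and Tnfrsf18 had none of that kind. By height, most gained regions were weak for their list. Height was measured as fold enrichment, the signal at the summit over the local background, and expressed as a percentile among all peaks of the same stage. The median percentile of the 18 regions called at both SP stages and no other was 15.4 at SP4 and 22.3 at SP8, against 36.3 and 30.3 for all regions of that class. Ranks by q-value differed from this. Some of the 18 stood higher, such as the Tnfrsf18 region at 6.8 kb, with 54.9 and 33.3 by q-value against 17.2 and 4.96. Others stood lower, such as the Cd28 region at -32.2 kb at SP8, with 26.5 against 39.1. No median by q-value was computed. The SP4 only members had a median close to the 23.2 of all SP4 only regions. The SP8 only members had a median of 5.86, against 17.1 for all SP8 only regions. Of the 47 gained regions 19 lay within 1 kb of a region called at DN or DP, 40.4% against 38.7% of all regions gained in this way.

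**Figure D4:**
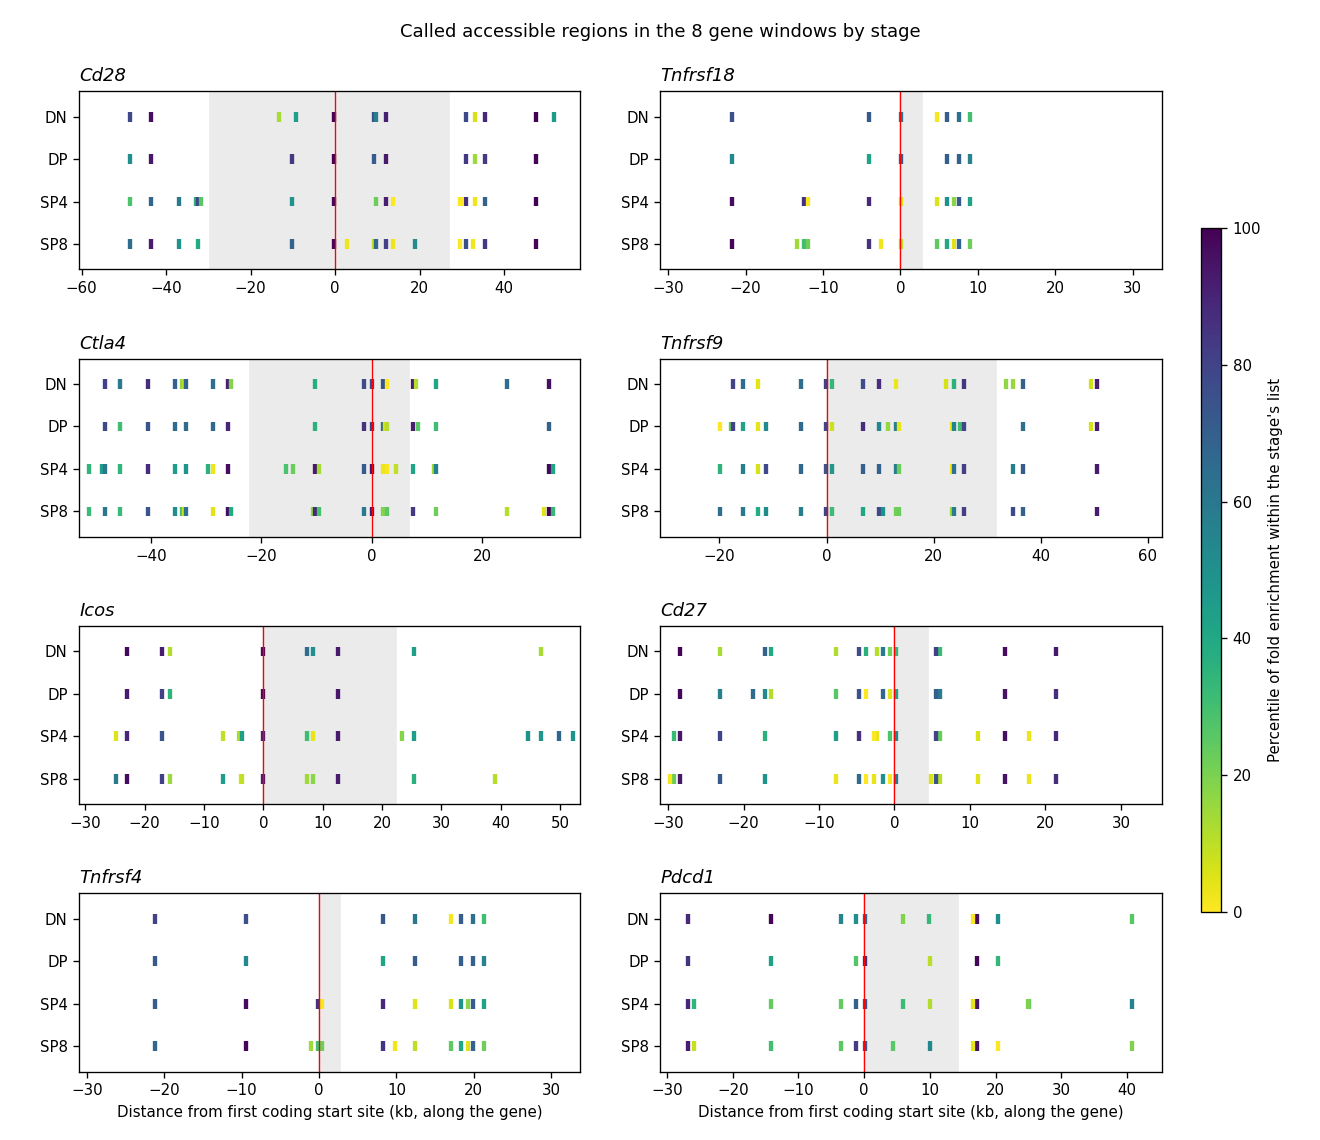
Every called region of the 8 windows by distance from the first coding start site in kb along the gene (horizontal axis, red line at 0, gene body in grey) and stage (rows), coloured by the percentile of fold enrichment in that stage's list. Marks present in the SP4 and SP8 rows without a DN or DP mark are frequent at Icos, Cd28 and Ctla4 and nearly missing at Tnfrsf9.

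The start sites were compared next. A region lay over a coding start site of 7 of the 8 genes at DN (62.0% of all protein-coding genes), of 7 at DP (59.2%), of 8 at SP4 (57.7%) and of 8 at SP8 (57.5%). The gene without a region at DN and DP was Tnfrsf4, which encodes OX40. Its start site, at chr4:156013497-156014033, was called at SP4 with a fold enrichment of 15.6 (86.3rd percentile) and at SP8 with 4.36 (30.2nd percentile). Only 0.437% of protein-coding genes had a start site called at an SP stage and at neither DN nor DP. The region also overlaps the annotated end of Sdf4, and a second small region 0.3 kb inside Tnfrsf4 was called at SP8 (percentile 22.0) and just barely at SP4 (percentile 0.932).

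The start sites of the CD28 family were open throughout. Cd28 (chr1:60716800-60773359) stood at the 99.5th percentile at DN, 99.7th at DP, 98.5th at SP4 and 98.8th at SP8, among the highest peaks of every list. Icos (chr1:60977927-61000320) stood at 97.4, 97.9, 91.1 and 92.6. Its percentiles by q-value were 92.5, 94.2, 96.0 and 95.8, so there the SP stages were the higher. Ctla4 (chr1:60887000-60915832) had fold enrichments of 10.6 in DN, 11.7 in DP, 22.1 in SP4 and 21.2 in SP8 cells, which placed it at the 77.4th, 80.1st, 94.7th and 93.2nd percentiles. The Ctla4 start site was thus higher at both SP stages than at DN and DP. Pdcd1 (chr1:94038305-94052553, minus strand) was highest at DP, at the 87.3rd percentile against 67.2 at DN, 74.4 at SP4 and 72.7 at SP8.

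The TNF receptor start sites did not move together. At Cd27 (chr6:125232622-125237010, minus strand), whose product binds CD70, the percentile was 34.2 in DN, 41.8 in DP, 53.3 in SP4 and 59.6 in SP8 cells, both SP stages being above DN and DP. The Cd27 percentiles by q-value were 74.4, 77.5, 80.3 and 86.9, in the same order but by a smaller step. At Tnfrsf18 (chr4:156026164-156028895) the order was the opposite of that at Tnfrsf4, with percentiles of 60.7 in DN, 71.3 in DP, 4.82 in SP4 and 9.80 in SP8 cells. Ranked by q-value, the Tnfrsf18 region stood at 74.8, 78.2, 51.3 and 49.5, so the SP stages were again lower but by a smaller step. At Tnfrsf9 (chr4:150914562-150946102) the first start site, in a region that also covers a Park7 start, had percentiles of 81.5, 78.3, 73.1 and 79.9. The other 2 Tnfrsf9 regions cover internal starts of shorter transcripts. The one at 10.4 kb was called at SP8 only (49.0th percentile) and the one at 13.3 kb at DP (3.71), SP4 (22.6) and SP8 (22.7) but not at DN.

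**Figure D5:**
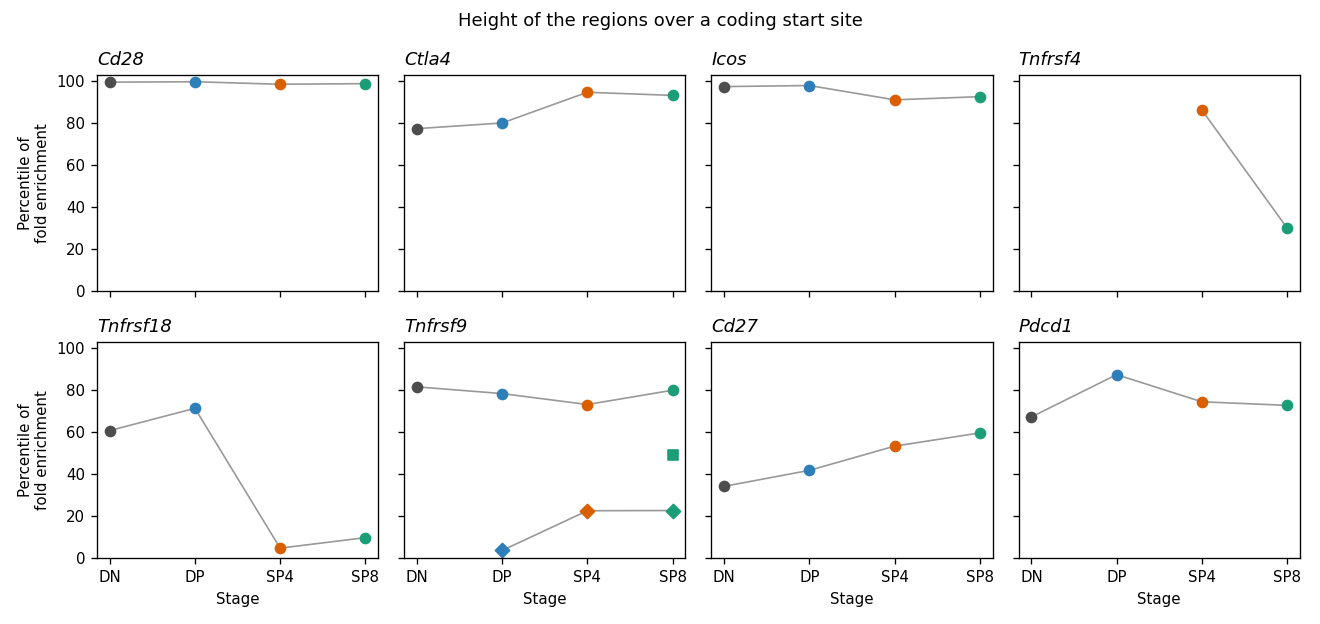
Percentile of fold enrichment within the stage's own list (vertical axis) of each region over a coding start site, by stage (horizontal axis), 1 panel per gene, lines joining the values of 1 region and different symbols for the 3 Tnfrsf9 regions. A missing point means that no peak was called. Tnfrsf4 has points at SP4 (86.3) and SP8 (30.2) alone, and Tnfrsf18 stands at 71.3 at DP and at 4.82 at SP4.

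Away from the start sites, single regions at the same loci differed between stages in opposite directions. The region at -10.0 kb of Ctla4, upstream of the coding start but inside the annotated gene body and with its sequence printed above, had fold enrichments of 4.66 in DN and 4.44 in DP against 17.9 in SP8 cells. Its percentiles from DN to SP8 were 37.9, 36.1, 93.7 and 88.9, both SP values being above both earlier ones. Another Ctla4 region, at 31.9 kb and past the gene, stood at 96.0 in DN, 68.9 in DP, 98.3 in SP4 and 99.3 in SP8 cells, and so was lowest at DP. In contrast the region at 1.8 kb, inside Ctla4, stood at 74.3 and 66.4 at DN and DP and at 2.42 and 18.7 at SP4 and SP8. Ranked by q-value it stood at 87.6, 73.8, 35.1 and 50.7 from DN to SP8, so the SP stages were lower by a smaller step. The region at -28.5 kb had percentiles of fold enrichment of 63.6, 66.1, 3.07 and 4.43 in the same order. A region 7.2 kb from the start, just past the gene, separated the SP stages, at 93.2 in DN, 91.6 in DP, 42.0 in SP4 and 83.3 in SP8.

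Between Tnfrsf4 and Tnfrsf18 and on their upstream side, 2 regions called at all stages were highest in the SP lists. The one at -9.2 kb of Tnfrsf4, in an intron of Sdf4, had fold enrichments of 9.98 in DN, 5.85 in DP, 25.3 in SP4 and 29.7 in SP8 cells, or percentiles of 75.4, 53.1, 97.0 and 98.7. The one at -3.5 kb of Tnfrsf18, between the genes, stood at 72.6, 41.6, 88.3 and 85.3. Both were lowest at DP. At Cd27 a region at -22.8 kb stood at 12.9 in DN, 56.6 in DP, 79.3 in SP4 and 72.2 in SP8 cells.

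Pdcd1 held the clearest case in the other direction. The region at -14.0 kb, printed above, had a fold enrichment of 27.9 at DN, which placed it at the 98.9th percentile of that list. It had 4.91 at DP, 4.03 at SP4 and 4.37 at SP8, percentiles of 43.1, 24.0 and 30.3, so that DN alone was high. The region at -1.1 kb of Pdcd1 was instead higher at the SP stages, at 50.7, 26.8, 68.9 and 82.5. The most significant Pdcd1 region outside a start site, 16.8 kb from the start and past the end of the gene, was high at every stage, at percentiles by q-value of 99.8, 99.8, 98.9 and 99.3.

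Several strong regions were high at all stages. By q-value the highest regions outside a start site included one at 11.7 kb of Cd28, with percentiles of fold enrichment of 91.1, 93.1, 91.7 and 80.3, and one at 14.3 kb of Cd27, over an exon of Vamp1, with 97.2, 95.2, 95.9 and 95.3. The region 47.4 kb from the Cd28 start stood at 99.8, 99.1, 99.3 and 98.7, the intronic Icos region at 12.2 kb at 93.2, 94.0, 93.0 and 92.7, and the region 50.1 kb from the Tnfrsf9 start, in an intron of Camta1, at 92.6, 92.9, 92.6 and 92.5. Over the 61 members called at all 4 stages, 5 were at least 25 points higher at SP4 than at DN (8.20%, background 7.59%) and 8 were at least 25 points lower (13.1%, background 13.0%). For SP8 against DN the counts were 5 (background 6.19%) and 7 (background 14.5%). These counts were close to the background, unlike the share of regions called at the SP stages and at neither earlier stage. The margin of 25 points was chosen after the values were seen. A DN percentile is taken in the longest list. With lists of equal length the Ctla4 start site stood at 67.5 at DN and 94.2 at SP4, the Pdcd1 -14.0 kb region at 98.4 and 16.3, and the Ctla4 -10.0 kb region was no longer called at DN.

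Cd28 had 4 regions called at both SP stages alone. The one at -32.2 kb was called at SP4 with a fold enrichment of 12.6 (79.9th percentile) and at SP8 with 5.02 (39.1st percentile). Another, at -36.7 kb, stood at 59.3 at SP4 and 49.4 at SP8. The other 2 were among the lowest peaks of their lists by fold enrichment, with 0.411 and 2.73 at 13.7 kb and 0.073 and 0.433 at 29.5 kb. The Cd28 region at -10.0 kb was missing at DN alone and had percentiles of 84.1, 49.6 and 68.2 from DP to SP8. The annotated body of Cd28 begins 29558 bp before the coding start through noncoding transcripts, and that of Ctla4 begins 22025 bp before it. With bodies limited to coding transcripts, Cd28 had as many SP4 as DN peaks, a difference of 0. At Icos, 3 regions upstream of the start were called at both SP stages alone. They lay at -24.7 kb (5.05 at SP4 and 58.6 at SP8), at -6.8 kb (9.58 and 44.6) and at -3.4 kb (43.6 and 9.69). Downstream of Icos, 3 regions at 44.5, 49.7 and 52.0 kb were called at SP4 alone, at percentiles of 49.6, 67.8 and 49.2, and a further one at 46.7 kb was called at SP4 (46.7) and DN (12.9). No SP8 peak lay among these 4 regions.

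At Cd27 the 4 regions called at both SP stages alone had percentiles between 0.00956 and 32.6, the highest being the one at -29.1 kb (32.6 at SP4 and 22.7 at SP8). At Pdcd1 there was 1, at -25.8 kb (34.8 and 8.77). At Ctla4 there were 3, at -51.2 kb (34.8 and 32.3), -9.4 kb (13.6 and 28.7) and 32.7 kb (40.8 and 33.1). The Tnfrsf18 region at 6.8 kb had 17.2 and 4.96. Among the highest regions called at fewer than 4 stages, that of Cd27 lay at -1.4 kb, over an exon of Vamp1, and was missing at SP4 alone, with 59.2 at DN, 67.2 at DP and 50.6 at SP8. That of Ctla4, at 24.4 kb, was called at DN (64.3) and SP8 (11.3). That of Pdcd1, at 40.6 kb and over an exon of Gal3st2c, was missing at DP alone, with fold enrichments of 3.99 at DN, 6.64 at SP4 and 3.71 at SP8. The corresponding Tnfrsf9 region, over an exon of Park7, was called at DN (79.8) and DP (81.2) alone. The Tnfrsf9 region at 9.5 kb, inside both Tnfrsf9 and Camta1, was called throughout and was highest at DN, at 87.2 against 54.2 at DP, 69.2 at SP4 and 77.9 at SP8.

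By position, 14 of the 152 regions covered a coding start site, 10 of them that of a member. Of the others, 16 touched an exon of a protein-coding gene, 48 lay elsewhere in such a gene and 74 between them. With exons of other annotated genes and the start sites included, 42 regions touched an exon. Another protein-coding gene contained 45 of the 152, among them Camta1 and Park7 at Tnfrsf9, Vamp1 at Cd27 and Sdf4 at Tnfrsf4, so these regions cannot be assigned to a member by position alone. With all peaks in other protein-coding genes left out, 5 of 8 windows still had more peaks at both SP stages than at DN and DP (background 5.09%). Cd27 and Pdcd1 then had equal SP4 and DN counts and Tnfrsf9 had 1 more SP4 than DN peak. The region closest to the edge of a window on its inner side ended 29857 bp from Cd27 and was called at SP8 (1.01st percentile), and the closest one not counted crossed the edge, with its far end 30105 bp from Tnfrsf4, and was called at DN (17.1st percentile).

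The rest of the pathway was read from lists of genes chosen with earlier results of these data known. In the CD28 family, 4 of whose 5 genes are members, 5 of 5 had more SP4 than DN peaks (14.7% of all gene windows), the fifth being the inhibitory receptor Btla with 9 peaks in DN, 7 in DP, 14 in SP4 and 13 in SP8 cells. In the TNF receptor superfamily 4 of 20 genes had more SP4 than DN peaks, 3 of them members. Among the 16 superfamily genes that are not members, 1 had more SP4 than DN peaks and 15 had fewer, as had 74.5% of all gene windows. The median difference of the 16 was -5.5, against -2.0 for all protein-coding genes. The 1 was the death receptor gene Fas, with 10, 14, 11 and 13 peaks, named after its values were seen. Of the 21 signal transducers 6 had more SP4 than DN peaks, of the 9 ligands 2, and of the 8 other coinhibitory receptors 4, against the same 14.7% of all gene windows. These lists are small and differences between them were not tested. Havcr2, which encodes the inhibitory receptor TIM-3, had a start site called at DN alone (43.5th percentile).

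The genes whose covered lengths over the 4 stages were closest to each member, by Euclidean distance of the log2 lengths with 100 bp added, give a description over 4 values each. They were Plat and Rab3ip for Cd28, Tnip3 and Hadh for Ctla4, Tnfsf8 and Kmt2c for Icos, and Abi1 and Izumo1r for Tnfrsf4. For Tnfrsf18 they were Lrrc6 and Ms4a4b, for Tnfrsf9 Arl4c and Pcif1, for Cd27 Jmjd6 and Bbc3, and for Pdcd1 Bora and Neto2. Distances lay between 0.066 (Tnfrsf9 and Arl4c) and 0.255 (Icos and Kmt2c) in log2 units. As one case, Izumo1r, which encodes folate receptor 4, had 4.19, 4.37, 6.20 and 6.51 kb of called chromatin from DN to SP8 where Tnfrsf4 had 4.58, 4.14, 6.52 and 6.71 kb.

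Short motifs were counted in the 200 bases around the summit of each region, on both strands. The RUNX letters TGTGGTT were found in 26 of 152 regions (17.1%, all regions 10.3%). The KLF letters CCACCC were found in 43 (28.3%, all regions 19.7%) and the GATA letters AGATAA in 18 (11.8%, all regions 8.06%). The other motifs lay closer, in percentage points, to their share of all regions, and the ETS and NFAT letters have GGAA in common. The ETS letters AGGAAGT were in 19 regions (12.5%, all regions 15.5%), the TCF7 and LEF1 letters CTTTGA in 21 (13.8%, all regions 16.0%) and the AP-1 letters TGANTCA in 11 (7.24%, all regions 7.17%). The E-box CAGCTG was in 27 regions (17.8%, all regions 18.3%) and the E-box CAGGTG in 34 (22.4%, all regions 23.3%). The NFAT letters TGGAAA were in 23 regions (15.1%, all regions 13.2%), the NR4A letters AAGGTCA in 4 (2.63%, all regions 2.49%) and the EGR letters GCGTGGG in 2 (1.32%, all regions 1.90%). Of the 47 regions gained at the SP stages, 15 held the KLF letters (31.9%, against 18.2% of all regions called in the same way), 7 the RUNX letters (14.9%, against 7.11%) and 6 the TCF7 and LEF1 letters (12.8%, against 20.2%). Among the same 47 regions, 9 held the E-box CAGCTG (19.1%, against 8.98% of all such regions), 9 the GATA letters (19.1%, against 10.3%) and 1 the AP-1 letters (2.13%, against 9.42%). The other motifs lay closer to all such regions. The ETS letters were in 8 (17.0%, against 13.6%), NFAT in 7 (14.9%, against 14.1%) and the E-box CAGGTG in 6 (12.8%, against 13.1%). The NR4A letters were in 3 (6.38%, against 4.35%) and the EGR letters in 0 (against 1.61%). No intervals were computed for these small counts. In the sequences printed above, the Icos region at 49.7 kb holds the RUNX letters on both strands, the Pdcd1 -14.0 kb region holds the RUNX, the NFAT and the first E-box letters, and the Ctla4 -10.0 kb region the ETS letters. The Ctla4 promoter holds the NFAT and the second E-box letters, which occur in 18.6% and 17.2% of the 32851 RefSeq promoters over the same 250 bases. A match shows only that the letters are there.

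The sorted stages were compared with marker genes. The start site of Zbtb7b, which directs CD4 lineage choice, was called at SP4 alone (56.4th percentile), and that of Ptcra, the pre-T cell receptor chain, stood at 94.5 at DN and 92.3 at DP and at 28.2 at SP4, and was lower still at SP8. Start sites of 5 of 6 T lineage markers were called at every stage, against 55.8% of all protein-coding genes. Among markers of other cells, 2 of 5 myeloid genes had a start site called at DN and 1 of 5 at each other stage, with Lyz2 at DN alone (88.4th percentile). Of 5 B cell genes 1 was called at DN and DP and 2 at the SP stages, Cd22 among them (24.0 at SP4 and 23.0 at SP8), and of 4 natural killer genes 2 at every stage. Of 7 regulatory T cell markers 6 had a start site called at every stage (55.8% of all protein-coding genes). More SP4 than DN peaks were counted at 2 of the 7 (14.7% of all gene windows). The CD4+ CD3+ sort holds regulatory T cells, Foxp3 itself lies on the X chromosome outside the lists, and the part of regulatory T cells and of other cell types in the values above was not tested.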

How the data were processed

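ATAC-seq of 4 thymocyte stages, each sorted from the same 4 mice, was analysed from the 4 deposited peak lists. Per the study's methods, BWA was used by the authors to align trimmed reads (mm10), Picard to mark duplicates for removal, and libraries were filtered on mapping quality and down-sampled to the median depth. They then pooled the mice of a stage, called peaks with MACS2 at 5% FDR and removed blacklisted regions. The deposited lists give for each peak a score, the ratio of its summit signal to local background (fold enrichment) and the −log10 q-value. They cover chromosomes 1 to 19. Tool versions are not given in the sources used here.

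Peaks sharing at least 1 bp were merged into regions with Python 3.11.15 (numpy 2.4.6, pandas 2.3.3), stages were assigned by overlap, and start sites were those of protein-coding transcripts. Merging, stage assignment and window counting were tested on simulated data. Shares have Wilson intervals from counts. No test was made, because each list pools its mice. Regions described were, per gene, those over a start site, the one outside any start site with the highest q-value percentile, the highest called at 1 to 3 stages, and all called at SP4 and SP8 alone, with others named after their values were seen. The members and lists were chosen with earlier results of these data known. Alternatives covered the window, the overlap, the q-value, list length, merging and the start site definition. RefSeq promoters were matched for 6 of the 8 genes.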

Additional observations from a re-analysis of the deposited data

How the results depend on the processing

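No paired analysis was possible because each list pools the 4 mice of a stage, and for the same reason no mouse could be left out. Of the summaries recomputed, 98 stayed close to the reported value and 7 moved. A share was called close when it lay inside the reported interval, and a count when it lay within a fixed ratio. That ratio was wide, since 80 SP4 peaks with 10 kb windows still passed as close to the reported 120. Of the SP4 minus DN differences of single genes, 49 stayed close, 12 moved and 3 changed sign. With windows of 10 kb on either side the DN count was 64 and the DP count 53, and with peaks in other protein-coding genes left out they were 64 and 54. Fewer positions cause these lower counts by construction. With equal numbers of peaks from each list the share of regions called at SP4 or SP8 and at neither DN nor DP was 38.8% (all regions 20.3%). Without the Cd28, Ctla4 and Icos windows, and with the lists whole, that share was 21.1% (all regions 15.4%). When a stage had to cover at least 50% of a region, 27.6% of regions were called at all 4 stages, against the reported 40.1%. That rule can only remove calls, so a lower share follows by construction. The share among all regions was also lower under it than the 34.1% of the main setting. The difference of SP4 minus DN peaks changed sign at Pdcd1 with 10 kb windows (-1), and at Tnfrsf9 with equal lists (7) and without peaks in other genes (1). The alternatives on other genes, on coding bodies, on the Cd28, Ctla4 and Icos windows and on heights in equal lists were chosen after seeing the data. Over 8 settings 5 to 7 of the 8 windows had more peaks at both SP stages than at DN and DP, with backgrounds of 4.38 to 13.7%. A small peak missed at one stage may lie just under the 5% FDR, and the lists do not give the depth per library.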
